A study of Mus musculus with 10 samples.

Results

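The genes described here are 10 components of bone morphogenetic protein (BMP) signalling: the receptors Bmpr1a and Bmpr2, the signal transducers Smad1, Smad5 and Smad4, the inhibitory Smads Smad6 and Smad7, and the target genes Id1, Id2 and Id3. They were taken by name from the 30295 gene rows of the study, all 10 were found, and all 10 were among the 15839 genes with enough counts to be tested. The study sorted intestinal stem cells of C57Bl/6 mice by flow cytometry and sequenced their RNA, with 1 library per animal. Lgr5 cells came from mice carrying Lgr5-EGFP-IRES-CreER, in which the Lgr5 locus drives EGFP in the cycling stem cells at the crypt base. Hopx cells came from mice carrying Hopx-CreER::LSL-tdTomato, in which a recombinase driven by the Hopx locus turns on tdTomato, so the label also stays in descendants of the cells that recombined. The animals were fed ad libitum (AL) or were calorie restricted (CR), and are named here by line and diet, for example Hopx CR, with 3 animals on each diet in the Lgr5 line and 2 on each in the Hopx line. Cells were isolated in 5 batches, each with 1 AL and 1 CR animal of the same line, numbered 1 to 3 for Lgr5 and 4 and 5 for Hopx. Every batch holds 1 line only, so line and batch cannot be told apart, whereas the diets can be compared within batches. The sources used here do not give the animals' age or the length and degree of the restriction.

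BMP ligands bind a complex of type I receptors such as Bmpr1a and type II receptors such as Bmpr2. The type I receptor then phosphorylates Smad1 and Smad5, which join Smad4, enter the nucleus and switch on targets that include the Id genes and the inhibitors Smad6 and Smad7. In the intestine BMP signalling is strongest towards the villus and is held down around the crypt base by secreted antagonists from the underlying tissue, and it is known for restraining stem cell proliferation. Id proteins are helix-loop-helix proteins without a DNA-binding region that tie up the E proteins, which are transcription factors.

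Promoter windows were found for 7 of the 10 genes in RefSeq (mouse build GRCm38.p6), with no entry for Id1, Smad4 or Smad7. The windows of Id2, Id3 and Smad6 are shown because the expression of Id3 and Smad6 followed Id1 most closely from library to library, whereas that of Id2 followed it less. Each window runs from 250 bases before the transcription start to 4 bases after it, 5′ to 3′ on the strand of the gene. Capitals mark matches, on either strand, to GTCTAGAC, the palindrome with which Smad binding sites were first defined, or to GGCGCC or GGAGCC, which are GC-rich motifs bound by BMP-activated Smads. The Id2 window is chr12:25096089-25096342 on the minus strand, the Id3 window chr4:136143572-136143825 on the plus strand and the Smad6 window chr9:64022056-64022309 on the minus strand.
Id2: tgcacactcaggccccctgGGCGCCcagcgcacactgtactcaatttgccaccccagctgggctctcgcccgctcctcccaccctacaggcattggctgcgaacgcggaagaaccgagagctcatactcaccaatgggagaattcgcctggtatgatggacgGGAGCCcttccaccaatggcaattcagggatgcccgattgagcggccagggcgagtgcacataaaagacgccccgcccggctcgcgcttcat
Id3: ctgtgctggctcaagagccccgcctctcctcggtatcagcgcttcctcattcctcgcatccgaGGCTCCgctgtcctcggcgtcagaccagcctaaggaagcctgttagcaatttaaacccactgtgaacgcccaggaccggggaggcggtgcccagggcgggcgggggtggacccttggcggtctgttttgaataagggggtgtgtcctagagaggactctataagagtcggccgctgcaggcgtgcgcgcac
Smad6: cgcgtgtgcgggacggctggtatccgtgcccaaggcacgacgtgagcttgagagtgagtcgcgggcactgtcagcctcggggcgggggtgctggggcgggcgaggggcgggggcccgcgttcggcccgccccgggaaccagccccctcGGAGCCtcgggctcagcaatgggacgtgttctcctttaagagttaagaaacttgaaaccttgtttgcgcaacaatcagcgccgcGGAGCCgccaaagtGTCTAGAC

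The Smad6 window held GTCTAGAC across its start, from position -4 to 4, and GGAGCC at -102 to -97 and at -18 to -13. The Id2 window held GGCGCC at -231 to -226 and GGAGCC at -88 to -83. The Id3 window held the reverse complement of GGAGCC at -187 to -182. Among 32817 RefSeq mouse promoter windows of 300 bases, GTCTAGAC was found in 0.21%, GGCGCC in 11.86% and GGAGCC in 30.84%, so the first is rare and the last is found in many promoters. The 3 motifs do not overlap in these 3 windows. Windows of Bmpr1a, Bmpr2 and Smad5, not shown and searched over 300 bases, also held GGCGCC, and a Smad5 window held GGAGCC. The Smad1 window held none of the motifs. A match describes the letters only, and binding was not measured.

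Library depth ran from 20.3 to 87.2 M estimated counts. The deposited libraries held transcripts of differentiated cells: the summed level of 9 Paneth cell markers was 63493 to 287873 TPM (a level per transcript length, scaled to a set total), and that of 10 enterocyte markers 7262 to 26974 TPM. The summed level of 8 active stem cell markers was 2519 to 8749 TPM in the Lgr5 cells and 1020 to 1831 TPM in the Hopx cells. The 10 stroma markers summed to 3.47 to 27.0 TPM, mostly from Vim (mean 12.7 TPM), with Col1a1 at 0.0351 TPM and Lum listed at 0 in every library. The 8 endothelial markers summed to 4.73 to 11.3 TPM, with Egfl7 at 4.13, Pecam1 at 2.45 and Cdh5 at 0.0119 TPM. Eif2s3y, which lies on the Y chromosome, stood at 0.0450 TPM in Lgr5 AL 3, 0.0766 in Lgr5 CR 3 and 0.125 in Hopx CR 1, and at 8.91 to 30.5 TPM in the other libraries, so the pair of isolation 4 differs in it. In such bulk samples, fewer cells of a type and less RNA per cell cannot be told apart.

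The 10 genes spanned a wide range of levels. On the TPM scale, as means over the 10 libraries with the SD between them, the targets and the central transducer stood highest: Id3 was 103 ± 23.8, Smad4 95.2 ± 37.9 and Id1 72.2 ± 18.3 TPM. Smad1 followed at 48.3 ± 16.9 TPM, Id2 at 42.0 ± 8.19 TPM and the type I receptor Bmpr1a at 23.0 ± 6.88 TPM. The inhibitory Smads and the second receptor-activated Smad were lower, with Smad7 at 9.24 ± 4.61, Smad5 at 7.51 ± 3.83 and Smad6 at 5.04 ± 2.11 TPM. Bmpr2, the type II receptor, was lowest at 0.546 ± 0.173 TPM. Each gene overlapped its neighbours in this order over the libraries, except Bmpr2, whose highest library (0.889 TPM) lay below the lowest of Smad6 (1.78 TPM).

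The order within each role was the same in every library. Id3 was above Id1 and Id1 above Id2 in 10 of 10 libraries. Smad4, which is shared with the transforming growth factor β (TGF-β) branch, was above Smad1, and Smad1 above Smad5, in 10 of 10. Relative to its mean, Id2 varied least over the libraries, with a coefficient of variation of 19.5%, and Smad5 most, with 51.0%.

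**Figure D1:**
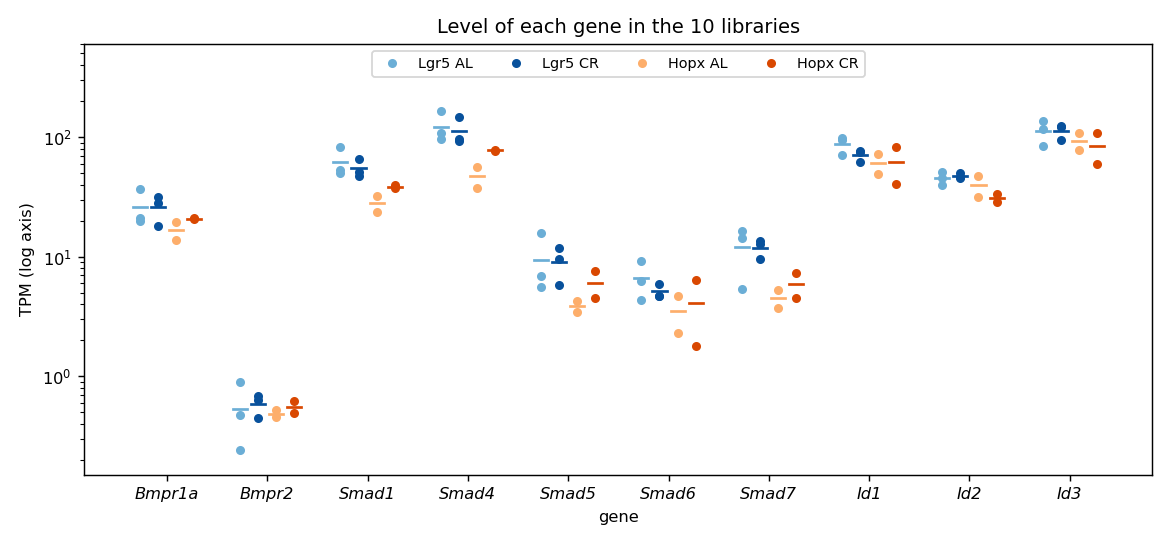
Level of each of the 10 genes in TPM (log axis) in the 10 libraries, grouped by line and diet. Points are libraries and bars are group means. Bmpr2 lies below all the other genes, and the Hopx AL libraries lie below all Lgr5 AL libraries for Bmpr1a, Smad1, Smad4, Smad5 and Smad7, on a scale on which the median of all tested genes was 0.49 lower in Hopx AL (log2).

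The first comparison was calorie restriction in Lgr5 cells. None of the 10 genes passed the test (edgeR's quasi-likelihood test, adjusted p 0.709 to 0.932), and none had an unadjusted p under 0.05. Across all tested genes 0.0189% passed at an adjusted p under 0.05, and 9.78% had an unadjusted p under 0.05. DESeq2 and limma also called none of the 10 here, while DESeq2 called 365 genes in all. When isolation was added as a block, 0 genes passed in edgeR, compared with 3 without it. In CPM (counts scaled to library size, for comparing 1 gene between libraries), the AL and CR values of every one of the 10 genes overlapped. Groups that did not overlap were found for 7.41% of genes with CR higher and 7.49% with CR lower.

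The Id genes show the size of the spread in Lgr5 cells. Id1 was 62.7, 45.3 and 43.0 CPM in Lgr5 AL and 49.2, 52.4 and 39.1 CPM in Lgr5 CR, in order of isolation. Neither diet was the higher one throughout: Lgr5 AL 1 held the highest value and Lgr5 CR 3 the lowest. The fitted log2 difference was -0.10 (SE 0.256), with a 95% confidence interval from -0.68 to 0.47. This interval still holds a fall to 0.626 times or a rise to 1.38 times the AL level.

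Id3 was 130, 78.1 and 74.1 CPM in Lgr5 AL and 117, 119 and 85.1 CPM in Lgr5 CR. Its log2 difference was 0.19 (SE 0.271, interval -0.42 to 0.79). Id2 was 49.7, 37.7 and 29.5 CPM in Lgr5 AL and 48.4, 47.0 and 42.3 CPM in Lgr5 CR, a difference of 0.24 (SE 0.197, interval -0.20 to 0.68). For both genes the CR value was above the AL value in isolations 2 and 3 and below it in isolation 1.

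Among the receptors and transducers in Lgr5 cells, Bmpr2 had the largest fitted difference, 0.44 (SE 0.345, interval -0.33 to 1.21). Lgr5 AL 1 held 2.57 CPM of it and the other Lgr5 libraries 4.81 to 6.91 CPM, and without Lgr5 AL 1 the difference was 0.16. Bmpr1a and Smad5 each differed by 0.25, Smad4 by 0.11 and Smad1 by 0.07. Smad1 was the most closely bounded, with an interval from -0.24 to 0.38. On log2(TPM + 1), a scale on which the fitted median of all tested genes was -0.11, Smad1 and Smad4 turned to -0.14 and -0.12.

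In CPM the inhibitory Smads varied widely in Lgr5 AL. Smad6 was 23.7, 10.9 and 10.8 CPM in Lgr5 AL and 15.3, 12.5 and 11.7 CPM in Lgr5 CR. Its difference was -0.20 (SE 0.459) and turned to 0.28 without Lgr5 AL 1. Smad7, which inhibits both the BMP and the TGF-β branch, was 33.9, 10.9 and 19.8 CPM in Lgr5 AL and 28.2, 20.5 and 25.4 CPM in Lgr5 CR. Its difference was 0.20 (SE 0.362), and it was 0.69 without Lgr5 AL 1 and -0.12 without Lgr5 AL 2.

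**Figure D2:**
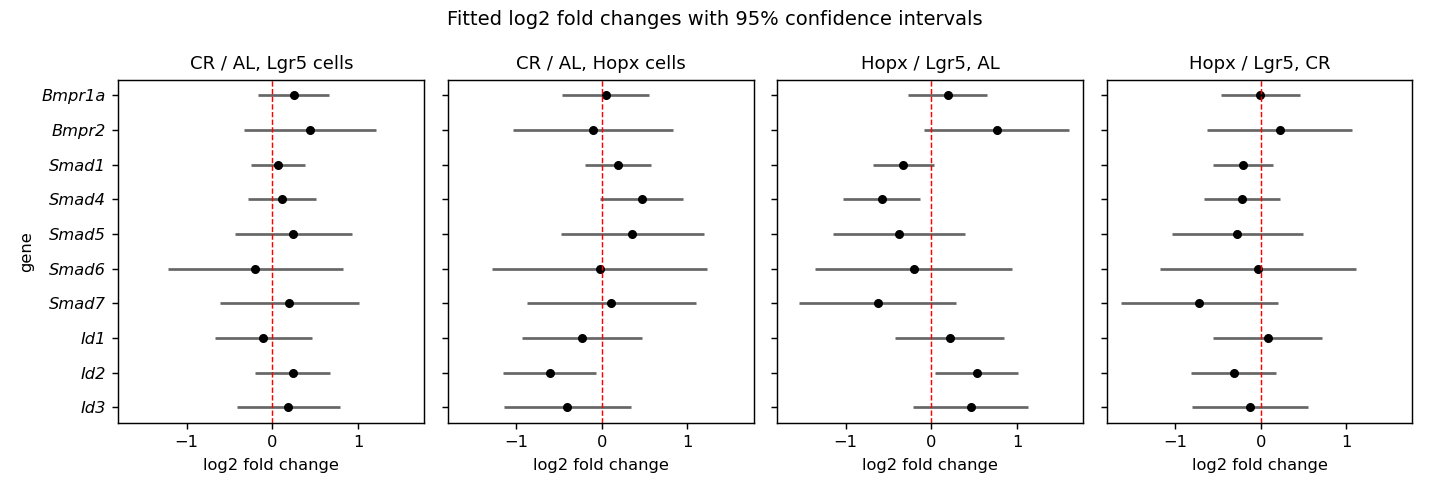
Fitted log2 fold changes (x axis) of the 10 genes (y axis) in 4 contrasts, from edgeR's quasi-likelihood fit. Points are estimates and lines 95% confidence intervals. Intervals that leave out 0 are those of Id2 for diet in Hopx cells and of Smad4 and Id2 between lines under AL, and none of the 10 genes passed after adjustment.

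The second comparison was calorie restriction in Hopx cells. None of the 10 genes passed after adjustment (edgeR, smallest adjusted p = 0.542), where 0.0126% of all tested genes did. Id2 alone had an unadjusted p under 0.05 in this fit, as 8.52% of all tested genes did. With isolation as a block in edgeR, 2 of the 10 did, beside 1575 of 15839 genes. In DESeq2 it was also 2 of the 10, beside 1702 of 15806 genes. DESeq2 called none of the 10 and 140 genes in all, and edgeR with isolation as a block called 0 genes in all, compared with 2 without it. With 2 libraries a group, CPM values did not overlap for 3 of the 10 genes with CR higher (Bmpr1a, Smad1, Smad4) and for 2 with CR lower (Id2, Id3). The same was found for 21.5% and 21.1% of all tested genes.

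Id2 was 53.0 and 59.6 CPM in Hopx AL and 40.4 and 33.3 CPM in Hopx CR. Both CR libraries lay below both AL libraries. The log2 difference was -0.61 (SE 0.241, interval -1.15 to -0.07), which is 0.655 times the AL level (edgeR, unadjusted p = 0.0300, adjusted p = 0.542). With a correction for transcript length and GC content it was -0.50 (edgeR unadjusted p = 0.0845). With each Hopx library left out in turn, the difference lay between -0.76 and -0.47. On the TPM scale, Id2 was 31.5 and 47.4 in Hopx AL and 33.4 and 28.4 in Hopx CR, so that the groups overlapped. The log2(TPM + 1) difference was -0.32, and the median over all tested genes on that scale was 0.15.

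Smad4 was 154 and 170 CPM in Hopx AL and 229 and 218 CPM in Hopx CR. Both CR libraries were above both AL libraries. The difference was 0.46 (SE 0.218, interval -0.02 to 0.95), or 1.38 times (edgeR, unadjusted p = 0.0593, adjusted p = 0.591). In a fit over both lines Smad4 differed by 0.29 (SE 0.141, unadjusted p = 0.0690, adjusted p = 0.381, edgeR). In that fit none of the 10 genes passed, with or without adjustment, where 0.00631% and 14.5% of all tested genes did.

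Id1 and Id3 were far apart between the 2 Hopx CR libraries. Id1 was 55.7 and 61.1 CPM in Hopx AL and 33.2 and 66.1 CPM in Hopx CR. Hopx CR 1 was the lowest and Hopx CR 2 the highest of all 10 libraries for this gene. Its difference of -0.24 (SE 0.314) became 0.18 without Hopx CR 1 and -0.81 without Hopx CR 2. Id3 was 127 and 131 CPM in Hopx AL and 70.8 and 125 CPM in Hopx CR. The AL values were higher, but for isolation 5 the gap was small. Its difference of -0.41 (SE 0.332) became -0.05 without Hopx CR 1 and -0.87 without Hopx CR 2.

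Smad6 divided the Hopx CR libraries in the same manner. It was 10.4 and 15.8 CPM in Hopx AL and 5.74 and 20.1 CPM in Hopx CR, and the CR values enclosed the AL values. The difference was -0.03 (SE 0.562), from -1.19 without Hopx CR 2 to 0.62 without Hopx CR 1. Smad7 was 13.5 and 14.3 CPM in Hopx AL and 11.9 and 18.3 CPM in Hopx CR. Smad5 stood at 35.0 and 32.3 CPM in Hopx AL and 54.6 and 31.5 CPM in Hopx CR, so here Hopx CR 1 was the high library. The receptors were close between the diets, Bmpr1a at 97.1 and 101 CPM in Hopx AL and 104 and 102 CPM in Hopx CR, and Bmpr2 at 8.27 and 7.06 CPM and 6.51 and 7.81 CPM.

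Markers of other cells also differed between the diets in Hopx cells. The summed level of 12 lymphocyte markers was 85.8 to 155 TPM in Hopx AL and 27.2 to 79.0 TPM in Hopx CR, lowest in Hopx CR 1, and 10 of the 11 tested markers were lower under CR. None of these 12 markers was at 0 in every Hopx library of a diet. The summed enterocyte markers were 7262 to 7736 TPM in Hopx AL and 13842 to 17740 TPM in Hopx CR, with 10 of 10 higher. The summed Paneth markers were 192268 to 287873 TPM and 153343 to 209392 TPM, with 8 of 9 lower. The summed enteroendocrine markers were 1933 to 3378 TPM and 1416 to 3176 TPM, with 9 of 9 lower and a median log2 difference of -0.90. The part of these marker lists in the values of Id2, Id3 and Smad4 was not tested.

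The question of whether the diet response differed between the lines was addressed with the interaction term. No member passed after adjustment (edgeR, adjusted p = 1.00), where 0.00631% of all tested genes did, and DESeq2 called none of the 10 either. Id2 had an unadjusted p under 0.05, as did 4.72% of all tested genes. Its diet difference in Hopx cells minus that in Lgr5 cells was -0.85 log2 units (SE 0.311, interval -1.54 to -0.15, unadjusted p = 0.0216 in edgeR). After the correction for length and GC content this stood at -0.63 (unadjusted p = 0.0922 in edgeR). For Id3 the uncorrected quantity was -0.59 (SE 0.429, interval -1.55 to 0.36). Markers stood beside this contrast too. The diet difference was higher in Hopx than in Lgr5 cells for 8 of 8 tuft markers (median 1.91), lower for 9 of 9 Paneth markers (median -0.66) and lower for 8 of 9 enteroendocrine markers (median -1.22). It was also higher for 8 of 8 proliferation markers (median 0.42) and lower for 3 of 3 tested endothelial markers (median -0.76). Of the 11 tested lymphocyte markers, it was lower for 8 and higher for 3 (median -1.36). The median of all tested genes was -0.04. In Lgr5 cells the summed tuft markers were 139 to 515 TPM under AL and 45.0 to 77.6 TPM under CR. The part of these marker lists in the Id2 value was not tested.

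Within the 5 isolation pairs no gene of the 10 moved in 1 direction throughout, whereas 8.74% of all tested genes were higher under CR in all 5 pairs and 7.66% were lower. 5 pairs are too few for an exact two-sided test to reach 0.05. Bmpr1a, Bmpr2 and Smad1 were higher under CR in 4 of 5 pairs. Smad1 differences were small, 0.04, -0.05, 0.20, 0.18 and 0.20 log2 units in isolations 1 to 5. Smad4 differed by -0.04, -0.07, 0.37, 0.57 and 0.36, and thus was higher under CR in the last 3 isolations only.

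The Id genes were lower under CR in 3 of 5 pairs each, with Id2 and Id3 lower in the same isolations. Id1 was lower in isolations 1, 3 and 4 (-0.35, -0.14 and -0.74) and higher in isolations 2 and 5 (0.21 and 0.11). Id3 was lower in isolations 1, 4 and 5 (-0.15, -0.85 and -0.08) and higher in isolations 2 and 3 (0.61 and 0.20). Id2 was lower in isolations 1, 4 and 5 (-0.04, -0.39 and -0.84) and higher in isolations 2 and 3 (0.32 and 0.52). Isolation 4 held the largest falls of Id1, Id3 and Smad6, the last at -0.85. Its animals differ in Eif2s3y, and the part of that in these values was not tested.

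**Figure D3:**
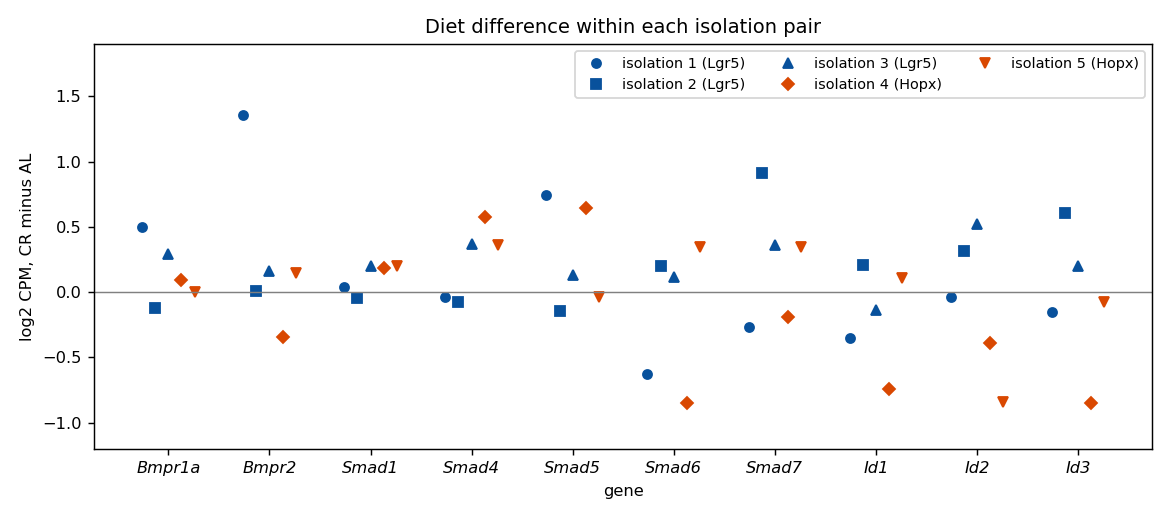
Difference in log2 CPM between the CR and the AL library of each isolation pair (y axis) for the 10 genes (x axis). Blue marks Lgr5 pairs and orange Hopx pairs. No gene has all 5 marks on 1 side of 0, and the isolation 4 marks of Id1, Id3 and Smad6 are the lowest for those genes.

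The third comparison set Hopx against Lgr5 cells within a diet. Under AL none of the 10 genes passed after adjustment in edgeR, where 0.0189% of all tested genes did. Smad4 and Id2 had an unadjusted p under 0.05, as did 17.7% of all tested genes. CPM values did not overlap for 2 of the 10 with Hopx higher (Bmpr2, Id2) and 2 with Hopx lower (Smad1, Smad4). The shares of all tested genes were 18.8% and 15.8%. Under CR none passed with or without adjustment (0.0189% and 6.3% of all tested genes), and 0 of the 10 genes were higher and 3 lower without overlap (Smad1, Smad7 and Id2), compared with 11.7% and 11.4% of all tested genes.

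Smad4 in Hopx AL (154 and 170 CPM) lay below all Lgr5 AL libraries (225, 245 and 255 CPM). The log2 difference was -0.58 (SE 0.202, interval -1.03 to -0.13, edgeR adjusted p = 0.184), or 0.670 times. DESeq2 called it (-0.62, adjusted p = 0.0436), as it did 7.32% of all tested genes. So did limma on log2(TPM + 1) (-1.35, adjusted p = 0.0135), which called 21.2% of all tested genes, 3241 of the 3359 lower in Hopx AL. On that scale the median of all genes was lower in Hopx AL by 0.49, so that Smad4 stood below the bulk of genes as well. Under CR its difference was -0.22 (SE 0.20, interval -0.67 to 0.22).

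Smad1 showed the same order with a smaller gap: 111 and 113 CPM in Hopx AL against 135, 138 and 148 CPM in Lgr5 AL, a difference of -0.33 (SE 0.159, edgeR adjusted p = 0.317). On log2(TPM + 1) it was -1.09 and passed in limma (adjusted p = 0.0183), so that 2 of the 10 genes passed in that fit, a share near that of all tested genes. Under CR Smad1 was 126 and 130 CPM in the Hopx cells and 134 to 170 CPM in the Lgr5 cells (-0.20, SE 0.158). The difference of Smad7 was -0.63 (SE 0.412) under AL and -0.72 (SE 0.412) under CR, the largest of the 10 under CR. Its Hopx CR values (11.9 and 18.3 CPM) were below the Lgr5 CR values (20.5 to 28.2 CPM).

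The order of the lines for Id2 was opposite under the 2 diets. In CPM it was higher in Hopx than in Lgr5 cells under AL (0.53, SE 0.218, interval 0.04 to 1.02, edgeR adjusted p = 0.246), with 53.0 and 59.6 CPM against 29.5 to 49.7 CPM. Under CR it was lower, with 40.4 and 33.3 CPM against 42.3 to 48.4 CPM (-0.32, SE 0.222, interval -0.81 to 0.18). With a correction for transcript length and GC content the AL difference was 0.29 (edgeR unadjusted p = 0.249). The AL value also depends on the scale: on log2(TPM + 1) it was -0.23, which is above the median shift of all genes of -0.49 but below 0. Id1 and Id3 differed by 0.21 and 0.46 under AL and by 0.08 and -0.13 under CR, and on log2(TPM + 1) by -0.55 and -0.28 under AL.

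Cell type markers moved with line under AL. The summed active stem cell markers were 2519 to 8749 TPM in Lgr5 AL and 1020 to 1831 TPM in Hopx AL, and all 8 were lower in Hopx AL. The summed Paneth markers were 63493 to 168005 TPM in Lgr5 AL and 192268 to 287873 TPM in Hopx AL, with 9 of 9 higher in Hopx AL. The 9 enteroendocrine markers had a median log2 difference of 1.92, with 9 of 9 higher and sums of 800 to 1629 TPM and 1933 to 3378 TPM in the same groups. Goblet markers summed to 3815 to 6964 TPM and 8361 to 11611 TPM, with 6 higher and 2 lower. Markers also moved with line under CR. There 8 of 8 active stem cell markers were lower in Hopx than in Lgr5 cells (median -0.67) and 8 of 8 tuft markers higher (median 1.64). Higher as well were 9 of 9 enteroendocrine markers (median 0.88), 7 of 9 Paneth markers and 7 of 8 goblet markers. No marker of these lists was at 0 in every library of a group. Their part in the values of Smad4, Smad1, Smad7 and Id2 was not tested, and line cannot be told apart from isolation.

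From library to library the genes formed sets that followed each other. These correlations of log2 CPM over the 10 libraries describe these libraries, which share lines, isolations and a common scaling, and carry no test. There were 45 pairs of genes. Smad1 and Smad4 had the highest value, Pearson's r = 0.96 (Spearman's rho 0.81), and Smad5 followed both (0.69 with Smad1 and 0.65 with Smad4). Id1 and Id3 stood at r = 0.90 (rho 0.88), Id1 and Smad6 at 0.85 (rho 0.76), and Id3 and Smad6 at 0.74 (rho 0.68). Hopx AL 1 departed from this, with 55.7 CPM of Id1 and 127 CPM of Id3 but only 10.4 CPM of Smad6, the BMP target that inhibits the pathway.

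Id2 followed Id3 (r = 0.65) more than Id1 (0.35). Hopx CR 2 set Id1 and Id2 apart: it had the highest Id1 of all libraries, 66.1 CPM, and the second lowest Id2, 33.3 CPM. Smad7 followed Smad6 (0.63) and was nearer to 0 with Id1 (0.25). Id1 and Smad5 went in opposite directions in CPM (r = -0.84, rho -0.88), but on log2(TPM + 1) the value was 0.23, so that this relation depends on the scale.

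With values centred on the mean of each line, r was 0.89 for Id1 and Id3, 0.92 for Id1 and Smad6, and 0.94 for Smad1 and Smad4. Without the 2 libraries farthest from the median of Id1, which are Hopx CR 1 and Hopx CR 2, these were 0.88, 0.66 and 0.98. With a correction for transcript length and GC content they were 0.87, 0.62 and 0.93. The lengths used there order Smad6 and Id1 opposite to the deposited TPM, as given under processing, which limits the corrected values. Id1 and Smad6 is the least firm of the 3, also when only the libraries were left out.

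Of 11 marker lists, several followed the same sets. The mean log2 CPM of the 11 tested lymphocyte markers had r = 0.68 with Id1, 0.72 with Id3, 0.72 with Smad6 and 0.57 with Id2 over the 10 libraries. That of the 8 active stem cell markers had r = 0.79 with Smad1, 0.74 with Smad4 and 0.76 with Smad5, and -0.59 with Id1 and -0.63 with Id3. The myeloid and B cell markers had r = 0.64 with Id1, 0.60 with Id3 and 0.68 with Smad6, and the stroma markers -0.54 with Id1 and -0.62 with Id3. With Smad1 and Smad4 the goblet markers had r = -0.73 and -0.67, and the enteroendocrine markers -0.69 and -0.56. The summed lymphocyte markers were 57.5 to 287 TPM in Lgr5 AL, 66.8 to 170.5 TPM in Lgr5 CR, 85.8 to 155 TPM in Hopx AL and 27.2 to 79.0 TPM in Hopx CR. In Lgr5 CR the active stem cell markers summed to 3998 to 4870 TPM and in Hopx CR to 1496 to 1782 TPM. The part of any of these lists in the correlations was not tested.

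**Figure D4:**
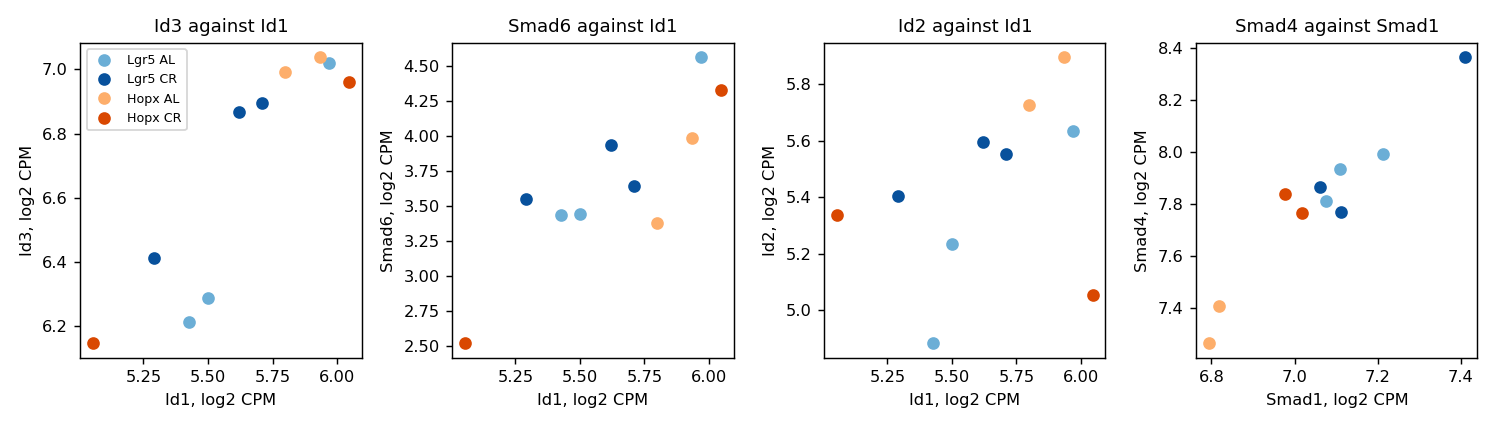
Log2 CPM of pairs of genes in the 10 libraries, coloured by line and diet: Id3, Smad6 and Id2 against Id1, and Smad4 against Smad1. Each point is a library. Id3 and Smad6 rise with Id1 (r = 0.90 and 0.85), Id2 does so less (0.35), and Smad4 rises with Smad1 (0.96).

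The rest of the pathway was taken from gene lists. No gene of any list passed after adjustment in any of the 6 contrasts in edgeR, so up to 4 genes with the highest mean TPM are named per list. Of 13 BMP ligands, 5 were tested. Bmp7 stood at 9.07 TPM, Bmp3 at 4.62, Bmp2 at 4.36 and Bmp8a at 3.09 TPM, whereas Bmp4, singled out after its values were seen as the best known ligand of the gut mesenchyme, stood at 0.101 TPM. The fitted diet difference of all 5 tested BMP ligands was above 0 in both lines, with a median of 0.58 in Lgr5 cells and 0.88 in Hopx cells. The medians of all tested genes were 0.02 and -0.02, with 51.8% and 48.6% above 0. The ligand medians rest partly on few counts: Bmp8b, named here for that reason, had 2.04 to 202 a library and Bmp8a 45.4 to 585. Bmp2, Bmp7, Bmp8a and Bmp8b were each lower under CR in at least 1 pair. On log2(TPM + 1), 4 of the 5 BMP ligands were above 0 in Lgr5 cells. Bmp3 differed by 0.69 in Lgr5 and 0.88 in Hopx cells (edgeR adjusted p = 0.694 and 0.713) and was higher under CR in all 5 pairs. All 10 enterocyte markers were also higher under CR in both lines, and their part in the ligand values was not tested.

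Of 10 other receptors and co-receptors, 8 were tested. Rgmb, a co-receptor for BMPs also called Dragon, stood at 81.9 TPM and thus above both of the receptors Bmpr1a and Bmpr2. Rgmb was 153 to 314 CPM in Lgr5 AL, 193 to 258 CPM in Lgr5 CR, 94.0 and 118 CPM in Hopx AL, and 80.7 and 199 CPM in Hopx CR. The Lgr5 AL and Hopx AL values did not overlap (-1.07, edgeR adjusted p = 0.204). Bambi, a decoy receptor without a kinase, stood at 15.8 TPM and differed in the other direction between the lines (1.14 under AL, adjusted p = 0.305). The type II receptor Acvr2a stood at 8.12 TPM, and Neo1, which binds Rgm proteins, at 4.36 TPM. Under CR, Acvr2a differed by 0.89 in Lgr5 cells and 0.42 in Hopx cells (edgeR adjusted p = 0.342 and 0.762).

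Secreted antagonists were represented by genes that are not the classic crypt antagonists. Of 12, 6 were tested: Twsg1, a modulator that works with chordin, stood at 19.0 TPM, Fstl1 at 14.6, Nbl1 at 3.78 and Fstl3 at 1.04 TPM. Nog and Grem1, named after their values were seen because they are the known antagonists around the crypt, were at most 0.0258 and 0.0105 TPM in any library. Under CR the median difference of the 6 was -0.07 in Lgr5 cells and -0.74 in Hopx cells, with Fstl1 at -0.70 in the latter (edgeR adjusted p = 0.610). The medians of all tested genes were 0.02 and -0.02. The list medians rest partly on few counts: Fstl3 had 3.16 to 171 a library. Chrd and Fst, named here for their low counts, had 2.20 to 68.3 and 0 to 104. Nbl1 differed by 0.65 in Lgr5 and 1.33 in Hopx cells (adjusted p = 0.741 and 0.614).

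All 14 other Smads and Smad regulators were tested. Tob1, which represses Smad-driven transcription, stood at 62.9 TPM, the Smad phosphatases Ctdsp2 and Ppm1a at 45.0 and 31.8 TPM, and Smad2, a transducer of the TGF-β branch, at 23.5 TPM. The diet difference was above 0 for 10 of the 14 in each line, with medians of 0.11 in Lgr5 and 0.30 in Hopx cells. Ski, singled out after its values were seen, differed by -1.87, -0.25, -1.14, -0.31 and 0.34 in isolations 1 to 5. Of all tested genes, 51.8% were above 0 in Lgr5 and 48.6% in Hopx cells, with medians of 0.02 and -0.02. Smad2 differed by 0.28 and 0.35 and Ppm1a by 0.36 and 0.25 in the same order, and both were higher under CR in all 5 pairs. Ctdsp2 was lower in Hopx AL than in Lgr5 AL (-0.70, edgeR adjusted p = 0.119, and called by DESeq2).

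Of 10 other BMP targets 8 were tested, and their median difference between Hopx AL and Lgr5 AL was -0.60, while that of all tested genes was 0.04. Of the 8, 5 were lower and 3 higher, and of all tested genes 47.5% were lower. The target median rests partly on few counts. Gata2, Msx1 and Runx2, named here for that reason, had 0 to 25.5, 2.00 to 58.6 and 3.57 to 43.0 a library. Hes1, which is also a Notch target, stood at 89.7 TPM and was 105 to 202 CPM in Lgr5 AL and 52.1 and 64.0 CPM in Hopx AL (-1.24, edgeR adjusted p = 0.0960). Atoh8, at 4.41 TPM, was 8.32 to 12.6 CPM in Lgr5 AL and 3.19 and 4.12 CPM in Hopx AL (-1.48, adjusted p = 0.143). DESeq2 called both, and no target passed in edgeR. Tbx3 stood at 70.6 TPM and differed by -0.72 (adjusted p = 0.204). It was higher under CR in all 5 pairs, by 0.48 in Lgr5 and 0.38 in Hopx cells. Klf4, a transcription factor of differentiated cells, stood at 22.4 TPM and differed by 0.29 between the lines under AL (adjusted p = 0.729).

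Among the E proteins, Tcf3 stood at 77.2 TPM, Tcf12 at 21.1 and Tcf4 at 2.37 TPM. Tcf3 was 185 to 205 CPM in Lgr5 AL and 121 and 132 CPM in Hopx AL (-0.65, edgeR adjusted p = 0.110, and called by DESeq2). Of the 10 TGF-β and activin ligands and receptors 9 were tested, with the receptors Tgfbr1 at 8.85, Tgfbr2 at 6.63, Acvr1b at 2.19 and Acvr1c at 1.81 TPM. Tgfbr2 was higher under CR in all 5 pairs, by 0.42 in Lgr5 and 0.27 in Hopx cells (edgeR adjusted p = 0.514 and 0.764). The genes with 1 direction in all 5 pairs stand beside the 8.74% of all tested genes given above.

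**Figure D5:**
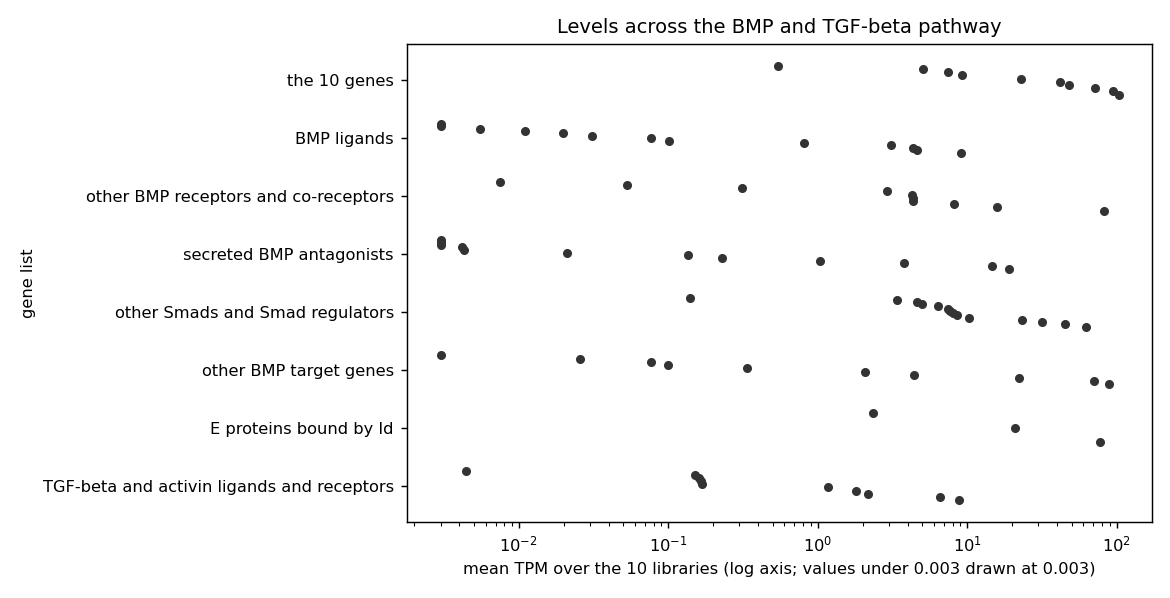
Mean TPM over the 10 libraries (log axis) of the 10 genes and of the genes in each pathway list (y axis). Each point is a gene, and values under 0.003 TPM are drawn at 0.003. The ligand and antagonist lists reach down to that floor, whereas 9 of the 10 genes lie above 5 TPM.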

How the data were processed

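RNA of 10 libraries of sorted cells was made into cDNA with the SMART-Seq v4 Ultra Low Input kit and into libraries with Nextera XT, per the labels' protocols, with no molecular identifiers and no strand information. The authors deposited estimated counts per gene symbol, which kallisto and edgeR are named for in the submitters' processing notes, with no version. The authors also deposited TPM for the same rows. The notes name the human build GRCh38 although the symbols are mouse symbols, and how transcripts were summed to genes is not given in the sources used here.

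Estimated counts were rounded, genes were filtered with filterByExpr at a minimum count of 10, which left 15839 of 30295, and libraries were scaled by TMM. A mean per group was fitted over all 10 libraries with edgeR's quasi-likelihood test (edgeR 4.0.16, R 4.3.3), so that all groups share their spread (common biological coefficient of variation 0.389). Two-sided p-values were adjusted by Benjamini-Hochberg over all tested genes of each of 6 contrasts, with a threshold of 0.05. An SE is the log2 difference divided by the square root of F. Pair differences and correlations used log2 CPM with a prior count of 2, and TPM served to compare genes. Depth was 20.3 to 87.2 M estimated counts. Bmpr2 rested on 71.5 to 539 counts a library, and the other 9 genes on at least 266. The scripts were tested on simulated data.

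Isolation numbers pair the libraries, since the labels give them as shared batches. The correlation of the 2 libraries' deviations from their group means was 0.0759, 0.165, 0.0195, 0.0252 and 0.0252 in isolations 1 to 5, the last 2 being equal because groups of 2 deviate symmetrically. The alternatives were DESeq2 size factors, DESeq2 1.42.0, no filter, isolation as a block, limma 3.58.1 on log2(TPM + 1) and log2(TPM + 0.1), and each library left out. Those for length and GC content, for the correlations and for the direction within pairs were chosen after seeing the data. Of the 15839 genes, 95.5% had a length and GC content, each the median over the annotated transcripts of the gene. Short transcripts count in it, so the length need not be that of the transcripts expressed. Smad6 had 417 bases and Id1 1047. In Lgr5 AL 1, however, Smad6 had 663 counts at 9.15 TPM and Id1 1757 counts at 95.2 TPM. More counts per TPM go with a longer transcript, so these 2 lengths are in the opposite order to those behind the deposited TPM.

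The 10 genes, the lists, the tests and the motifs were chosen with earlier results of these data known. Named genes are the 10 genes, list members that passed or otherwise up to 4 per list with the highest mean TPM, and the 5 genes nearest to Id1 by Pearson's r with a mean of at least 5 CPM, predicted genes left out. Of the myeloid and B cell markers, Adgre1 and Jchain were not found. The lists overlap in no gene with the 10.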

Additional observations from a re-analysis of the deposited data

How the results depend on the processing

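No member passed under any alternative except Smad4 between the lines under AL in DESeq2 (1 member) and Smad4 and Smad1 there in both TPM fits (2 members each). Counts of all genes called moved more. For diet in Lgr5 cells they were 3 in the reported fit, 1 with DESeq2 size factors, 365 in DESeq2, 83 with no filter, 19 and 23 on log2(TPM + 1) and log2(TPM + 0.1), and 1 with the length and GC correction. For diet in Hopx cells they were 2, then 140 in DESeq2, 7 with no filter, and 4 and 4 on the TPM scales. For the interaction they were 1, then 35, 3, 3 and 2 in the same order. Over both lines they were 1, then 641, 117, 50 and 62, and 2 with the length and GC correction. Between lines they were 3, then 1157, 194, 3359 and 3617 under AL, and 3, then 160, 24, 5 and 12 under CR. The paired fit with isolation as a replicate block gave 0 genes for diet in Lgr5 cells, 0 in Hopx cells, 0 for the interaction and 2 over both lines, and it changed no other call. It cannot be fitted between lines. With each library left out the counts were 0 to 109 for diet in Lgr5 cells, 1 to 3 in Hopx cells, 1 to 2 for the interaction, 1 to 348 over both lines, and 0 to 110 and 1 to 7 between lines under AL and CR. The 109, the 348 and the 110 were found without Lgr5 AL 1. With a Hopx library left out, its group holds 1 library, which is assumed to vary like the others. On log2(TPM + 1), 799 genes were lower under CR in all 5 pairs. The cause of these differences was not tested.

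Of 711 alternative values for 43 pairs of a gene and a contrast, 49 had the opposite sign, 25 of them with a library left out and 21 on the TPM scales. On log2(TPM + 1) and log2(TPM + 0.1), in that order, diet in Lgr5 cells gave Smad1 -0.142 and -0.144 and Smad4 -0.119 and -0.120. Diet in Hopx cells gave Bmpr2 0.0650 and 0.157 and Smad6 0.0584 and 0.0342, and the length and GC correction gave Smad6 0.135. Hopx against Lgr5 cells under AL gave Bmpr1a -0.567 and -0.592, Id1 -0.553 and -0.560, Id2 -0.228 and -0.234, and Id3 -0.283 and -0.285, with Bmpr2 at -0.0244 on log2(TPM + 1). Under CR it gave Bmpr2 -0.0282 and -0.0592 and Id1 -0.284 and -0.290, and Bmpr1a was 0.0035 with no filter and 0.0014 with the length and GC correction. The correlation of Id1 and Smad5 was 0.228 on log2(TPM + 1). On log2(TPM + 0.1) the median over all tested genes was -0.16, 0.24, -0.66 and -0.27 for diet in Lgr5 and Hopx cells and for line under AL and CR.

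With each library left out, diet in Lgr5 cells ranged from -0.210 to 0.0847 for Id1, -0.0463 to 0.134 for Smad1, -0.0967 to 0.189 for Smad4, -0.398 to 0.281 for Smad6 and -0.121 to 0.691 for Smad7. Diet in Hopx cells ranged from -0.232 to 0.0301 for Bmpr2, -0.809 to 0.178 for Id1, -0.0949 to 0.702 for Smad5, -1.19 to 0.616 for Smad6 and -0.229 to 0.390 for Smad7. Line under AL ranged from -0.530 to 0.273 for Smad6. Line under CR ranged from -0.185 to 0.123 for Bmpr1a, -0.492 to 0.495 for Id1, -0.592 to 0.221 for Id3, -0.725 to 0.0723 for Smad5 and -1.196 to 0.605 for Smad6.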

Other observations

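Over the 10 libraries, 5 genes lay nearest to Id1 among 10031 genes with a mean of at least 5 CPM, by Pearson's r of log2 CPM. They were Sfn (0.93), an adaptor protein of epithelial cells, Cfl1 (0.93), which severs actin filaments, Ppp1r35 (0.92), Unc13d (0.92), which primes secretory granules for release, and Mllt6 (0.92). Id3 ranked 7 in this order and Smad6 20, while Id2 ranked 1903 and Smad7 2490. Smad5 ranked 9974, near the opposite end, and its relation to Id1 changes sign on the TPM scale. The libraries share lines, isolations and scaling, and these values carry no test.

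Smurf1, a ubiquitin ligase for Smad1 and Smad5, was singled out after its values were seen. It was higher under CR in all 5 pairs (0.54, 0.20, 0.32, 0.40 and 0.67 log2 units) and differed by 0.44 over both lines (edgeR adjusted p = 0.174). DESeq2 called it there, as it did 641 of 15806 genes. Of all tested genes, 8.74% were higher under CR in all 5 pairs.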
